A study of Mus musculus with 61 samples.

Results

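Gpnmb, the gene whose mutant allele separates DBA/2J from D2-Gpnmb+ mice, was followed as 1 gene of 15149 through 61 RNA sequencing libraries of sorted mouse retinal cells, together with the genes whose levels moved with it from library to library inside groups. The gene was chosen by its symbol in the deposited table. The groups were DBA/2J at 9 months given nicotinamide (a form of vitamin B3 from which cells make NAD), dosed at 500 mg per kg per day (7 libraries), DBA/2J at 9 months on water (25), DBA/2J at 4 months on water (10), D2-Gpnmb+ at 9 months on water (9) and D2-Gpnmb+ at 4 months on water (10). Both strains share the DBA/2J background, and all retinas came from eyes without axon loss in the optic nerve. The label is retinal ganglion cells, which send the axons of the optic nerve to the brain. The sort required Thy1.2 on the surface and discarded cells with GFAP, Cd34, Cd45.2, Cd11c or Cd11b, which mark glia, blood vessels and leukocytes.

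Gpnmb encodes a transmembrane glycoprotein of melanosomes and lysosomes that is best known from pigment cells, macrophages and microglia, and its outer part can be shed by the protease ADAM10. The transcription factors MITF, TFE3 and TFEB drive lysosomal and pigment cell genes, Gpnmb among them in several cell types. DBA/2J mice carry a Gpnmb allele with a premature stop codon and a mutant Tyrp1 allele, and with age their irises shed pigment, eye pressure rises and ganglion cells are lost. D2-Gpnmb+ mice keep the DBA/2J background with a functional Gpnmb allele and are used as controls without glaucoma.

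The gene lies on chromosome 6 (GRCm38, 49036546 to 49070929, plus strand), where the GENCODE annotation gives it 5 transcripts. Transcript Gpnmb-201 has 3701 bases in 11 exons and encodes 574 amino acids. The stretch around codon 150, the codon known to be changed to a stop in DBA/2J, is shown because the strain comparison rests on this allele. It lies in exon 4 at chr6:49045355-49045417, plus strand, and is given as in the reference genome, with the reference codon in capitals.
Gpnmb codon 150 and flanks: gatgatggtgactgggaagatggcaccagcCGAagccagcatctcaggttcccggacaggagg
Of the codons, 25.96% lie before it, and 7 exon junctions follow it in the transcript. Reads were counted over the whole gene, so the deposited values do not tell the 2 alleles apart.

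Recovered reads per library ranged from 5133114 to 19501444 (median 9730486), and those of Gpnmb from 33 to 1127. Values below are deposited normalised read counts, not divided by gene length. Summed over each list and library, 15 ganglion cell genes gave 45.1 to 304, while 16 rod genes gave 824 to 77130 and 14 bipolar cell genes 3089 to 13120. The libraries therefore hold RNA of several retinal cell types, and in such samples a change in the number of cells of a type and in the RNA per cell cannot be told apart. The columns fall into 3 runs in the order of the table, of 10, 18 and 33 libraries, taken here to be the 3 runs of consecutive sample numbers in the labels. The third run holds all nicotinamide and 4-month libraries but only 3 of the 25 DBA/2J and 3 of the 9 D2-Gpnmb+ libraries of 9 months on water. What the runs stand for is not stated, so comparisons that cross them were repeated within the third run. The labels do not say that libraries came from separate animals, so the tests speak of the spread among libraries, which may be technical.

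In DBA/2J at 9 months with nicotinamide, the 7 libraries had Gpnmb values of 11.7, 15.3, 7.46, 13.1, 10.7, 8.12 and 16.2. In DBA/2J at 9 months on water, the lowest of 25 libraries was 8.39, the median 26.5 and the highest 78.3. In DBA/2J at 4 months, the 10 libraries had 8.02, 14.5, 10.4, 7.43, 9.85, 13.6, 8.16, 10.6, 3.69 and 5.29. Nicotinamide-treated (7.46 to 16.2) and young DBA/2J libraries (3.69 to 14.5) thus covered overlapping low ranges, and most untreated 9-month DBA/2J libraries lay above both.

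In D2-Gpnmb+ at 9 months, the 9 libraries had 11.9, 38.9, 43.8, 44.3, 41.1, 83.5, 65.4, 77.9 and 80.8. In D2-Gpnmb+ at 4 months, the 10 libraries had 106, 120, 66.5, 49.3, 34.7, 96.1, 130, 91.7, 94.8 and 61.6. The single 9-month D2-Gpnmb+ library at 11.9, replicate 1, stood well below the other 8. In order of the means, D2-Gpnmb+ at 4 months stood highest, followed by D2-Gpnmb+ at 9 months, DBA/2J at 9 months, DBA/2J with nicotinamide and DBA/2J at 4 months. Of the neighbours in this order, only DBA/2J at 9 months with nicotinamide and on water differed in the pooled limma fits, and the comparisons below give each test.

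**Figure D1:**
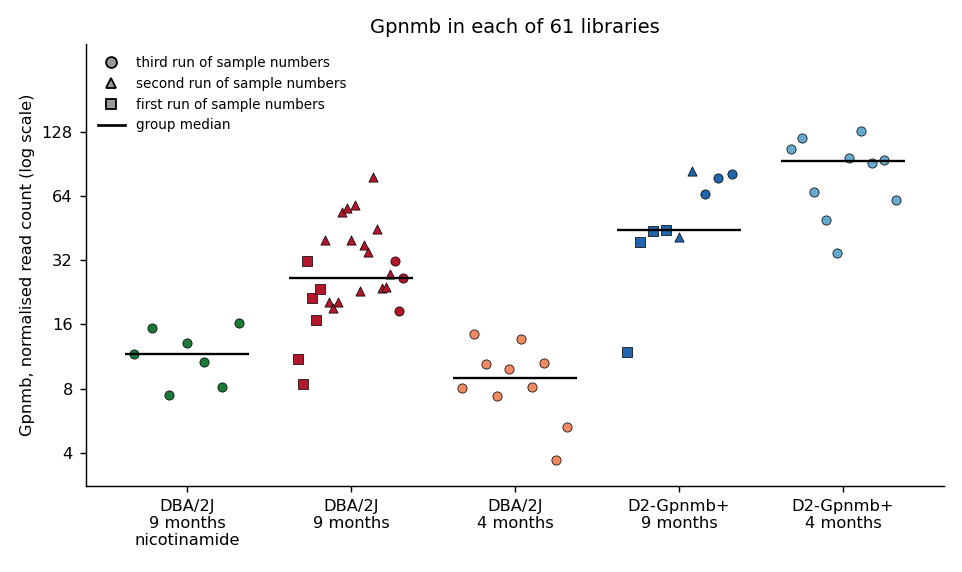
Gpnmb as deposited normalised read count (log scale) in each of the 61 libraries by group; the marker gives the run of sample numbers and the bar the group median. All 10 DBA/2J libraries of 4 months lie below all 10 D2-Gpnmb+ libraries of 4 months, while the 9-month groups of both strains overlap.

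At 4 months, Gpnmb fell in DBA/2J to 9.15 ± 3.38, against 85.0 ± 31.0 in D2-Gpnmb+ (SD, n = 10 each), which is 9.29 times less. The highest DBA/2J library (14.5) lay below the lowest D2-Gpnmb+ library (34.7). The log2 fold change was −3.06 ± 0.23 (SE, adjusted p = 5.01e-08, limma), in a comparison in which 0.25% of 12804 genes passed. By p-value Gpnmb ranked 2. A two-sided permutation test of Gpnmb alone gave p = 1e-05, the smallest that 100000 permutations can give. Every DBA/2J library still held 33 to 124 Gpnmb reads, so the transcript was low and not absent.

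At 9 months, the strains differed less clearly. Gpnmb averaged 31.7 ± 16.45 in DBA/2J (n = 25) and 54.2 ± 24.1 in D2-Gpnmb+ (n = 9), with overlapping ranges. The log2 fold change of −0.75 ± 0.28 did not pass the test across genes (adjusted p = 0.216, limma), in a comparison in which 0.0218% of genes passed. The exact permutation test of Gpnmb alone gave p = 0.0153 (0.0267 after adjustment over the 14 such tests made here).

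Inside each run, the DBA/2J mean lay below that of D2-Gpnmb+. In the first run Gpnmb averaged 18.8 ± 8.62 in DBA/2J (n = 6) and 34.8 ± 15.4 in D2-Gpnmb+ (n = 4; exact permutation p = 0.143). In the second run it averaged 37.6 ± 17.1 in DBA/2J (n = 16) and 62.3 ± 29.98 in D2-Gpnmb+ (n = 2; exact permutation p = 0.144). In the third run, the 3 DBA/2J libraries had 31.8, 18.6 and 26.5, against 65.4, 77.9 and 80.8 in the 3 D2-Gpnmb+ libraries, with no overlap. There Gpnmb had the smallest p-value of 12941 genes, with a log2 fold change of −1.53 ± 0.21 that missed the adjusted threshold (adjusted p = 0.133, limma). No gene passed in that fit (0%), in which 823 genes had an unadjusted p under 0.05, and edgeR called 0 and DESeq2 29. The exact permutation p of 0.1 is the smallest that 3 libraries against 3 allow. Without DBA/2J replicate 26 or 27 the adjusted p in the third run was 0.00629 (log2 fold change −1.70) or 0.0275 (−1.33).

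With age, Gpnmb rose in DBA/2J. It averaged 31.7 ± 16.45 at 9 months (n = 25), against 9.15 ± 3.38 at 4 months (n = 10), 3.46 times more. Of the 25 libraries of 9 months, 23 lay above the highest library of 4 months (14.5), and the 2 others, at 8.39 and 11.01, were in the first run. The log2 fold change was 1.599 ± 0.24 (adjusted p = 5.71e-05, limma), in a comparison in which 22.4% of 13587 genes passed and 9.25% rose. The permutation test of Gpnmb alone gave p = 1e-05, the smallest possible with 100000 permutations.

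Only the third run holds both ages. There, the 9-month DBA/2J libraries (31.8, 18.6 and 26.5) did not overlap the 10 libraries of 4 months (3.69 to 14.5). On the log2 scale the difference was 1.44 ± 0.29 (adjusted p = 0.0420, limma), with 0.263% of 13670 genes passing, and the exact permutation p of 0.0035 is the smallest this design allows. This call rested on single libraries: without 4-month replicate 1, 3, 4, 7, 8 or 10, or 9-month replicate 26 or 28, the log2 fold change was 1.27 to 1.47 and the adjusted p 0.0555 to 0.525. With the run as a covariate in the pooled fit, the log2 fold change was 1.44 and the adjusted p 0.224.

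In D2-Gpnmb+, Gpnmb averaged 54.2 ± 24.1 at 9 months (n = 9) and 85.0 ± 31.0 at 4 months (n = 10). A log2 fold change of −0.71 ± 0.31 did not pass (adjusted p = 0.128, limma), in a comparison in which 0.0232% of genes passed. The exact permutation test of Gpnmb alone gave p = 0.0385 (0.0599 adjusted over the 14 tests). Within the third run the 3 libraries of 9 months (65.4, 77.9 and 80.8) lay inside the range of the 10 libraries of 4 months (34.7 to 130), with a log2 fold change of −0.09 ± 0.32 (adjusted p = 0.999, limma; exact permutation p = 0.808). Without 9-month replicate 13 its sign turned (0.0014).

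Whether the age difference was unlike in the 2 strains was tested as an interaction, which does not test for opposite signs. The strain difference at 9 months minus that at 4 months was 2.31 ± 0.39 on the log2 scale (adjusted p = 0.00361, limma), the smallest p-value of 14150 genes, of which 0.375% passed. Across the 54 fits that left out 1 library each, the adjusted p ran from 0.00061 to 0.00912. With the run as a covariate the difference was 2.08 (adjusted p = 0.00233). Within the third run alone it was 1.53 ± 0.46 and did not pass (adjusted p = 0.324, limma), in a fit in which 0.0774% of genes passed.

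**Figure D2:**
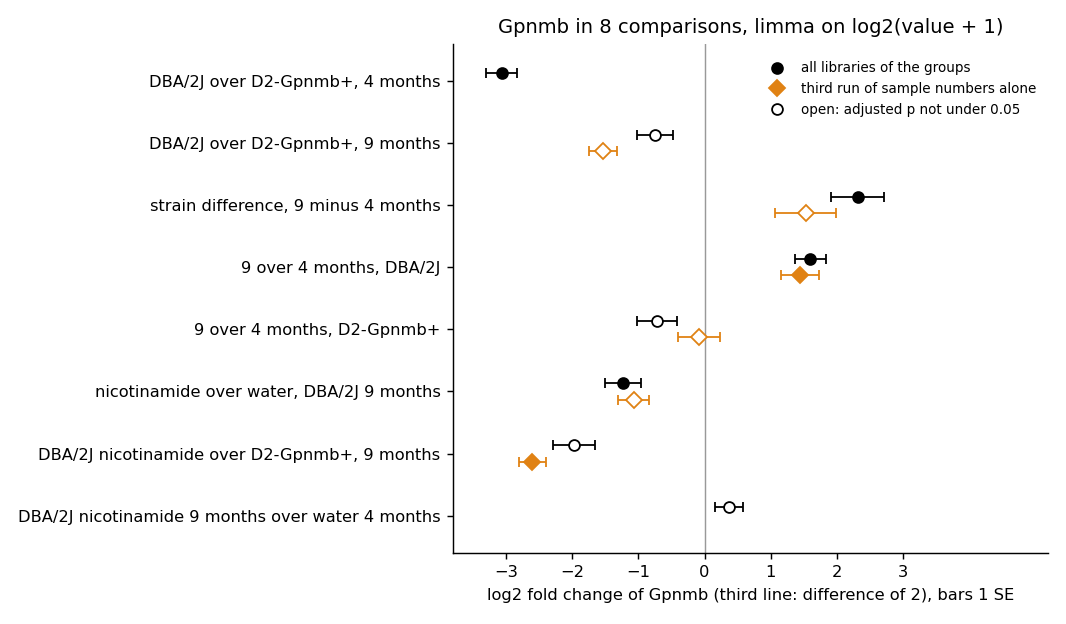
Log2 fold change of Gpnmb with 1 SE in 8 comparisons, from limma on all libraries of the groups compared (circles) and on the third run alone (diamonds); open markers have an adjusted p that is not under 0.05. The strain difference at 4 months (−3.06) is the farthest from 0, and the signs are the same with and without the first and second runs in the 6 comparisons made both ways.

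In the pooled libraries of DBA/2J at 9 months, Gpnmb fell to 11.8 ± 3.35 with nicotinamide (n = 7), against 31.7 ± 16.45 on water (n = 25), which is 2.69 times less. All 7 treated libraries, from 7.46 to 16.2, lay below the median of the water libraries (26.5). The log2 fold change was −1.23 ± 0.27 (adjusted p = 0.00204, limma), where 15.1% of 13925 genes passed and 5.34% fell. The exact permutation test of Gpnmb alone gave p = 0.000131.

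Within the third run, the 7 treated libraries did not overlap the 3 water libraries (18.6, 26.5 and 31.8). On the log2 scale the difference was −1.07 ± 0.23 (adjusted p = 0.0803, limma), in a fit in which 0.00749% of genes passed. The exact permutation p of 0.00833 for Gpnmb alone is the smallest this design allows. Without nicotinamide replicate 2 or 8, or water replicate 27, the fit did pass, with adjusted p of 0.0490 (−1.14), 0.0330 (−1.15) and 0.0251 (−1.28). With the run as a covariate in the pooled fit the log2 fold change was also −1.07, with an adjusted p of 0.791.

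Treated DBA/2J libraries were also set against the other groups. Against D2-Gpnmb+ of 9 months, Gpnmb averaged 11.8 ± 3.35 in treated DBA/2J (n = 7) and 54.2 ± 24.1 in D2-Gpnmb+ (n = 9), a log2 fold change of −1.98 ± 0.32. It had the smallest p-value of 13054 genes but missed the adjusted threshold (adjusted p = 0.0594, limma). No gene passed in that fit (0%), although 3838 had an unadjusted p under 0.05, and edgeR called 1132 and DESeq2 2081 genes. Without D2-Gpnmb+ replicate 1, the low library at 11.9, the adjusted p was 7.18e-05 (log2 fold change −2.22), and without D2-Gpnmb+ replicate 8, 9, 13 or 15 or nicotinamide replicate 8 it was 0.0310 to 0.0457 (−2.06 to −1.88). Within the third run the treated libraries (7.46 to 16.2) did not overlap the D2-Gpnmb+ libraries (65.4 to 80.8), and Gpnmb fell by 2.60 ± 0.20 on the log2 scale (adjusted p = 6e-06, limma), where 0.299% of 13377 genes passed.

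Against DBA/2J of 4 months on water, also in the third run, treated DBA/2J libraries of 9 months differed by 0.37 ± 0.21 on the log2 scale. Gpnmb averaged 11.8 ± 3.35 in the treated libraries (n = 7) and 9.15 ± 3.38 in the young ones (n = 10). The difference did not pass (adjusted p = 0.441, limma; exact permutation p = 0.139), in a comparison in which 1.54% of genes passed. The nicotinamide, age and strain comparisons share libraries, so their values are not independent of each other.

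Markers of other cell types moved in some of these comparisons. Microglia and macrophages are known to express Gpnmb. Of 14 tested genes of these cells, 12 rose with age in DBA/2J, with a median log2 fold change of 1.42, against 0.02 over all genes tested, of which 9.25% rose. Of 16 such genes tested with nicotinamide, 6 fell (median −1.41, against −0.03 over all genes, of which 5.34% fell). Cx3cr1 and C1qa were at 0 in all DBA/2J libraries of 4 months, and Tmem119, C1qa and Emr1 in all treated libraries. Genes near 0 in 1 group passed the filter on low values only through the other group, and could differ in 1 direction only. Between the strains at 4 months, 2 of the 17 genes in the table were tested. The counts and medians of this list thus follow in part from the filter. Summed over the 17 genes in the table, their level was 6.28 to 10.9 per library with nicotinamide, 6.08 to 351 in DBA/2J of 9 months on water, 5.01 to 11.5 in DBA/2J of 4 months, 8.31 to 26.6 in D2-Gpnmb+ of 9 months and 3.73 to 15.4 in D2-Gpnmb+ of 4 months.

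In DBA/2J of 9 months the high sums were those of the second run (19.5 to 351), where Gpnmb averaged 37.6. In the third run the sums of the 3 DBA/2J libraries of 9 months were 6.08 to 14.2, close to those of young DBA/2J. There 6 of the 17 genes (Aif1, Tmem119, Tyrobp, C1qa, C1qc and Emr1) were at 0 in all 3 libraries, and the others were not. In young DBA/2J, 4 of the 17 were at 0 in all 10 libraries. Gpnmb averaged 25.6 ± 6.66 in the third run of DBA/2J at 9 months (n = 3), against 9.15 ± 3.38 in young DBA/2J. In the first run, at sums of 6.09 to 14.6, it averaged 18.8 ± 8.62 (n = 6).

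Some bipolar cell genes fell with age. Of the 14 tested in DBA/2J, 5 fell and 0 rose at 9 months against 4 months (median log2 fold change −0.41), beside 13.2% of all genes that fell, and with nicotinamide 2 rose and 0 fell (median 0.12), beside 9.78% of all genes that rose. Of 12 tested amacrine and horizontal cell genes, 7 fell and 0 rose with age (median −1.23), and 9 rose and 0 fell with nicotinamide (median 1.81). Of 10 cone genes, 2 fell with age (median −0.30) and 8 rose with nicotinamide (median 1.01). Of 15 Müller glia and astrocyte genes, 6 rose with age (median 0.74) and 4 fell with nicotinamide (median −0.78). Of all genes, 9.25% rose with age and 5.34% fell with nicotinamide. Of 16 rod genes, 5 rose with age (median 1.02) and 0 passed with nicotinamide (median −0.25). With nicotinamide 0 of the 16 had an unadjusted p under 0.05, against 4378 of 13925 genes. Vessel genes had 1 of 14 that rose with age (median 0.17), a share near that of all genes, and 3 that fell with nicotinamide (median −0.83). Ganglion cell genes had 4 of 13 that fell with age (median −0.52) and 5 of 14 that rose with nicotinamide (median 0.76).

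These counts cross the runs. In the third run alone limma called 0 genes of each of these lists in either comparison, where 0.263% of all genes passed with age and 0.00749% with nicotinamide. Among all genes, 1465 of 13670 with age and 2242 of 13352 with nicotinamide had an unadjusted p under 0.05, beside which the counts below are to be read. There, 3 microglia and macrophage genes were tested with age and 2 with nicotinamide, with 0 at an unadjusted p under 0.05. The median of the bipolar list was −0.09 with age and −0.17 with nicotinamide, with 0 and 4 of 14 genes at an unadjusted p under 0.05, and the sign with nicotinamide was thus turned. That of the amacrine and horizontal list was −0.86 with age and 1.36 with nicotinamide, with 3 of 12 and 8 of 13 genes at an unadjusted p under 0.05. The Müller glia and astrocyte list turned its sign in both, with medians of −1.054 with age and 0.76 with nicotinamide, and 10 and 6 of 15 genes at an unadjusted p under 0.05. Cone genes had medians of 0.17 with age, where the sign turned, and 0.41 with nicotinamide, and rod genes 0.08 with age and 0.58 with nicotinamide, where the sign turned. At an unadjusted p under 0.05 were 1 of 10 cone and 1 of 16 rod genes with age, and 6 cone and 12 rod genes with nicotinamide. Ganglion cell genes had medians of −0.29 with age and 0.29 with nicotinamide (2 of 15 and 4 of 14 at an unadjusted p under 0.05), and vessel genes −0.20 with age, where the sign turned, and −0.64 with nicotinamide (0 and 5 of 14).

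With the mean log2 level of the bipolar list as a further covariate, chosen after the data were seen, Gpnmb differed by 1.89 with age in DBA/2J, by −1.45 with nicotinamide and by −3.22 between the strains at 4 months on the log2 scale, and each of these passed. The part of these cell types in the Gpnmb differences was not tested.

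The genes beside Gpnmb on chromosome 6 were examined to see whether a strain difference reached past the gene. Of the 10 nearest measured genes on each side, 15 of 20 were tested at 4 months, and 0 passed in limma, against 0.25% of all genes. At an unadjusted p under 0.05 was 1 of these 15 neighbours, against 1726 of 12804 genes. Their log2 fold changes stayed within 0.36 of 0 on either side. Of the nearest genes before Gpnmb, Tmem176a averaged 3.75 in DBA/2J and 3.50 in D2-Gpnmb+, Tmem176b 10.1 in DBA/2J and 11.97 in D2-Gpnmb+, and Gimap1 4.65 in DBA/2J and 5.23 in D2-Gpnmb+. Of those after it, Malsu1 averaged 10.4 in DBA/2J and 9.37 in D2-Gpnmb+, Igf2bp3 23.5 in DBA/2J and 27.5 in D2-Gpnmb+, and Tra2a 92.4 in DBA/2J and 97.2 in D2-Gpnmb+ (n = 10 each). No tested neighbour had a strain difference near that of Gpnmb. edgeR called 0 of them and DESeq2 called 1, Mpp6, a membrane scaffold protein named here after its value was seen, at a log2 fold change of −0.29 (adjusted p = 0.0477).

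**Figure D3:**
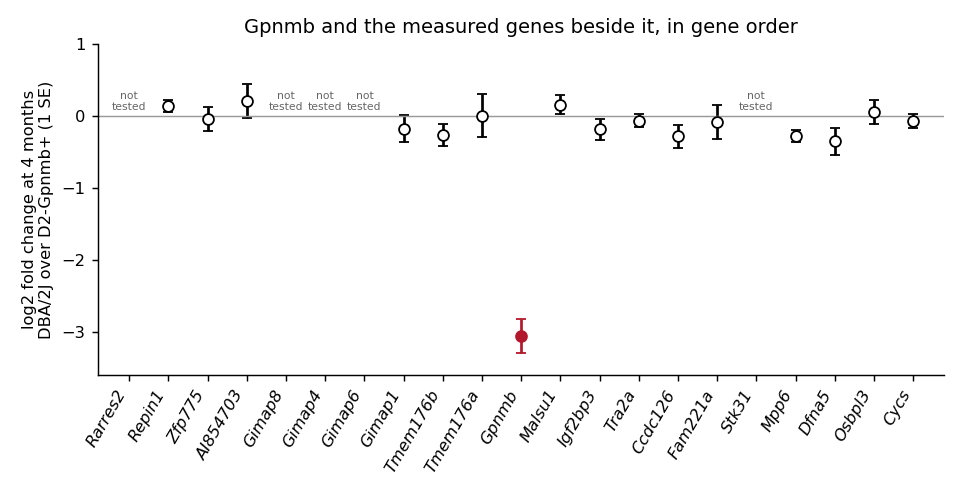
Log2 fold change (1 SE, limma) between DBA/2J and D2-Gpnmb+ at 4 months for Gpnmb and the 10 nearest measured genes on each side, in gene order and not to scale; open markers did not pass. Gpnmb lies at −3.06 and the 15 tested neighbours within 0.36 of 0.

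Gpnmb also varied inside groups, with coefficients of variation of 28.4% in nicotinamide-treated DBA/2J, 52.0% and 36.9% in DBA/2J of 9 and 4 months, and 44.5% and 36.4% in D2-Gpnmb+ of 9 and 4 months. To find genes that varied with it, each gene's log2 value was fitted on that of Gpnmb after the mean of each of 9 strata (group by run) had been taken off. Of 14480 genes, 965 (6.66%) covaried with Gpnmb by limma, 651 (4.5%) positively and 314 (2.17%) negatively.

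The count depended on which libraries entered. Without the 16 DBA/2J libraries of the second run it was 170, without D2-Gpnmb+ of 4 months 312, and with values scaled to total reads 2236 positive and 99 negative. In D2-Gpnmb+ alone 134 genes passed and in DBA/2J alone 577. In DBA/2J of 4 months alone 0 passed, with 883 of 12414 at an unadjusted p under 0.05, and 66.2% of the 965 genes kept their sign there.

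The 10 genes with the highest correlation were Abcc8, Sh2d5, Nfasc, Zfp521, Cacna2d4, Col4a2, Slc16a11, Mt2, Slc24a4 and Myo10, with Pearson r between 0.64 and 0.67 over 61 libraries. Abcc8, the regulatory subunit of ATP-sensitive potassium channels, had r = 0.67 and Spearman rho = 0.65 (permutation p = 1e-05 for each, the smallest possible; 3.07e-05 and 2.71e-05 after adjustment over 46 relations). Without the 2 libraries farthest from the median of Gpnmb, D2-Gpnmb+ of 9 months replicate 1 and of 4 months replicate 5, its r was 0.62. Mt2, a metallothionein that binds zinc and copper, had r = 0.65 and rho = 0.71, and 0.61 without those 2 libraries. Nfasc, the adhesion protein neurofascin, had r = 0.67 and rho = 0.70, and Cacna2d4, an auxiliary calcium channel subunit of photoreceptor and bipolar synapses, 0.66 and 0.68.

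The 10 genes with the lowest correlation were Erbb2ip, Snx10, Ift80, Yipf1, Lbh, Pik3r1, Nrip1, Idh1, Epb4.1l5 and Fam3c, with r between −0.60 and −0.55. Erbb2ip, a scaffold protein of cell membranes, had r = −0.60 and rho = −0.64, and Ift80, a subunit of the transport machinery of cilia, −0.58 and −0.57. These 20 genes were picked for their r among genes with a mean of at least 5, so their p-values do not stand for the search. Inside single strata of at least 6 libraries the sign was not always kept: in DBA/2J of 4 months Nfasc (−0.02), Myo10 (−0.05) and Nrip1 (0.04) had the opposite sign, and Snx10 had 0.34 with nicotinamide.

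**Figure D4:**
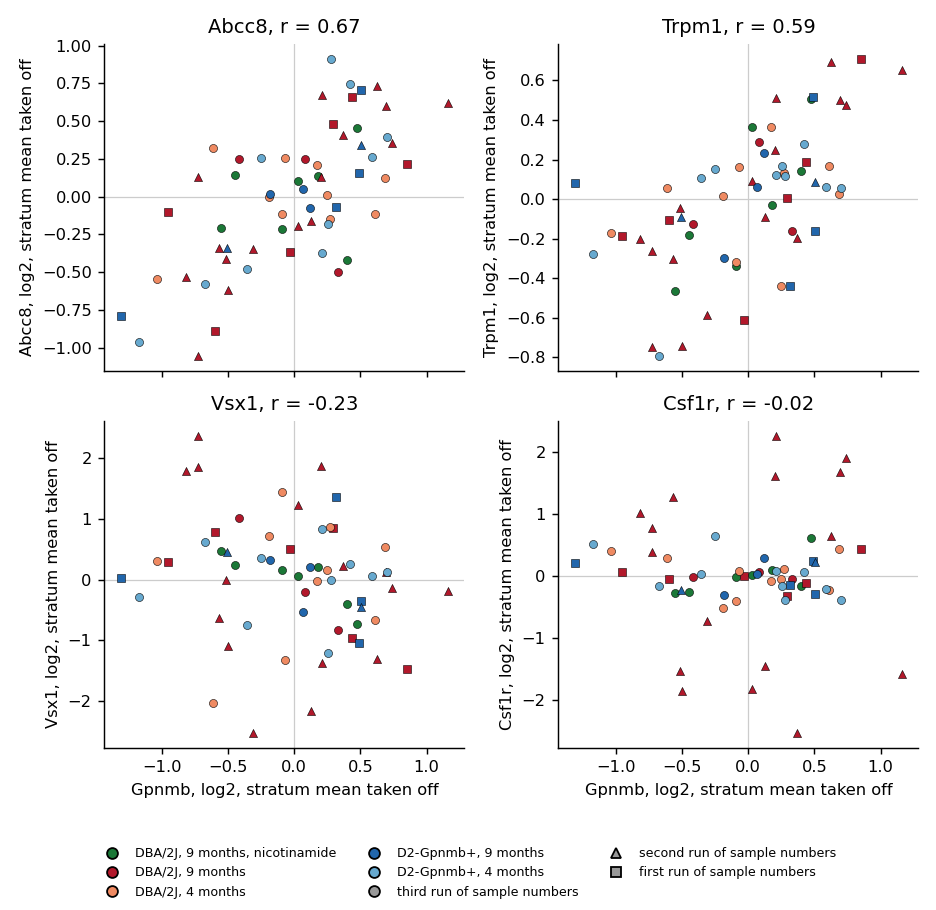
Log2 values of Abcc8, Trpm1, Vsx1 and Csf1r against those of Gpnmb in 61 libraries, each less the mean of its group and run; colour gives the group and marker shape the run. Abcc8 and Trpm1 increase with Gpnmb (r = 0.67 and 0.59), while Vsx1 and Csf1r have r of −0.23 and −0.02.

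Of the 12 gene lists examined, bipolar cell genes had the most members that covaried with Gpnmb. Of 14 tested, 8 passed, all positively, where 6.66% of all genes passed and 4.5% did so positively, and the median r was 0.41, against −0.01 over all genes. Trpm1, the cation channel through which ON bipolar cells respond to light, had r = 0.59 (rho = 0.60), and Grm6, the glutamate receptor that controls it, 0.51 (rho = 0.55). Pcp2, a modulator of G proteins in ON bipolar cells, had r = 0.53 (rho = 0.56), and Prkca, the protein kinase used as a rod bipolar marker, 0.51 (rho = 0.54). The permutation p of these r was 1e-05 to 7e-05, and 3.07e-05 to 0.000119 after adjustment over the 46 relations. These 4 genes were named for having the smallest adjusted p of their list in the covariation fit. Their permutation p-values come from the same libraries and are thus no further support.

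The other 4 that passed were Car8 (0.50), Cabp5 (0.45), Otx2 (0.42) and Isl1 (0.40). Gng13 and Nyx had r of 0.38 and 0.25 and did not pass. Vsx1, a transcription factor of cone bipolar types, had r = −0.23, Grik1, a glutamate receptor of OFF cone bipolar cells, −0.22, and Scgn, a calcium-binding protein of cone bipolar cells, −0.30, and none of these passed.

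In single strata, r of Trpm1 was 0.79 with nicotinamide (n = 7), 0.65 and 0.82 in the first and second runs of DBA/2J at 9 months (n = 6 and 16), 0.23 in DBA/2J of 4 months (n = 10) and 0.64 in D2-Gpnmb+ of 4 months (n = 10). Prkca had 0.48, 0.74, 0.68, −0.04 and 0.83 in the same order, and Pcp2 0.55, 0.67, 0.64, −0.35 and 0.84. In DBA/2J of 4 months, where Gpnmb had the fewest reads per library (33 to 124), r of the 13 bipolar cell genes shown lay between −0.35 and 0.40. Whether that stratum differs from the others was not tested.

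**Figure D5:**
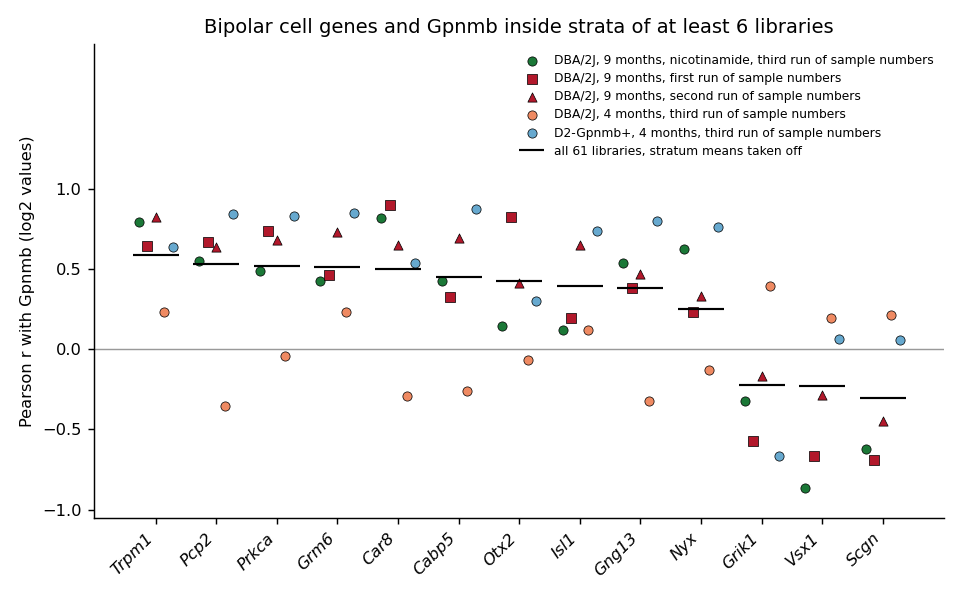
Pearson r of log2 values between Gpnmb and 13 bipolar cell genes inside each stratum of at least 6 libraries (markers) and over all 61 libraries after stratum means were taken off (bars). DBA/2J of 4 months lies between −0.35 and 0.40, and Trpm1 lies between 0.64 and 0.82 in the other 4 strata.

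Microglia, macrophages and pigment cells are those best known for Gpnmb, and their genes are read beside the 6.66% of all genes that passed in this fit. Of 16 tested microglia and macrophage genes, 0 passed in limma (median r 0.00, range −0.08 to 0.22). At an unadjusted p under 0.05 were 0 of the 16, against 2956 of 14480 genes. The median of the 17 genes in the table averaged 5.69 in the second run of DBA/2J at 9 months (n = 16). It averaged 0.57 in the second run of D2-Gpnmb+ at 9 months (n = 2) and 0 to 0.10 in every other stratum. These r thus rest largely on 16 libraries, and cannot tell whether Gpnmb followed these genes in the others. Csf1r, the receptor on which microglia depend, had r = −0.02, and Ptprc, which encodes the Cd45 protein removed in the sort, 0.22. Of 11 tested pigment cell genes, 1 passed, a share near that of all genes: Rab27a, a GTPase of melanosome transport (r = −0.41). Tyr, the first enzyme of melanin synthesis, averaged 6.03 ± 0.73 with nicotinamide, 6.41 ± 2.73 and 6.87 ± 1.94 in DBA/2J of 9 and 4 months, and 6.70 ± 2.32 and 7.95 ± 3.61 in D2-Gpnmb+ of 9 and 4 months, and its r with Gpnmb was −0.12. Mitf had r = −0.32, Tfe3 0.25 and Tfeb 0.08, and none of these passed.

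Of 38 tested genes of the MITF and TFE factors and the lysosome, 3 passed, a share near the 6.66% of all genes. Atp6v0a1, a subunit of the proton pump that acidifies lysosomes, was positive (r = 0.41), and Fnip2, a partner of folliculin (−0.42), and Uvrag, a factor of autophagy and endosomes (−0.39), were negative. At 4 months 0 of the 38 differed between the strains in limma, where 0.25% of all genes passed. Their median log2 fold change was 0.02, against 0.01 over all genes. At an unadjusted p under 0.05 were 5 of the 38, a share near that of all genes (1726 of 12804). Of 12 tested binding partners and shedding enzymes, Adam10 alone passed, negatively (r = −0.43), again a share near the 6.66% of all genes. Its level was 30.4 ± 4.29 in DBA/2J and 34.8 ± 4.64 in D2-Gpnmb+ at 4 months, which did not pass (adjusted p = 0.405, limma).

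Of 11 tested genes of lipid-laden macrophages, a state in which Gpnmb is a well-known marker, 2 passed positively, beside 4.5% of all genes. They were Abca1, which exports cholesterol (r = 0.51), and Igf1, a growth factor (0.43). Both were abundant in every group (group means of 83.6 to 113 and 154.5 to 283), and which cells they came from was not tested. Apoe (−0.10), Spp1 (0.19), Lgals3 (−0.13) and Cd63 (0.36) did not pass. With age in DBA/2J, 4 of these 11 rose and 2 fell, beside 9.25% and 13.2% of all genes, and with nicotinamide 1 rose and 3 fell, beside 9.78% and 5.34% of all genes. Libraries of the third run alone gave 0 of 10 tested in either comparison by limma, with 2 at an unadjusted p under 0.05 with age and 3 with nicotinamide. Among all genes, 1465 of 13670 with age and 2242 of 13352 with nicotinamide were under that cut. The median of the list was −0.10 with age, against 0.53 over all runs, and 0.21 with nicotinamide, against −0.66 over all runs.

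Among the other cell types, all 16 rod genes had a negative r (median −0.33). At an unadjusted p under 0.05 were 15 of them and 11 of the 14 bipolar cell genes, against 2956 of 14480 genes. Of the 16 rod genes, 2 passed, with Gngt1 at −0.47, where 6.66% of all genes passed. Of 10 cone genes Gnb3, which ON bipolar cells also express, passed positively (0.54) and Pde6h negatively (−0.43). Of 14 amacrine and horizontal cell genes Prox1 alone passed, positively (0.54), a share near that of all genes. Of 15 ganglion cell, 15 Müller glia and astrocyte and 14 vessel genes, 0 passed in limma, with median r of −0.13, −0.14 and 0.03 and 1 gene of each list at an unadjusted p under 0.05.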

How the data were processed

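RNA sequencing values of 61 libraries in 5 groups came from 1 deposited table of 15171 genes. TopHat2 2.0.7, Bowtie2 2.0.6, HTSeq and the build mm10 are named in the submitters' processing notes. The authors deposited a signal, read counts scaled to library size in a way not given in the sources used here. Division by the smallest step of each library gave whole reads (100% of positive values in every library, tolerance 0.05), which were used as counts. The 22 gene names turned into dates were left out, leaving 15149. Columns could be matched to groups but not to single samples, and the 3 runs were set by column order after the values had been looked at, with counts per group equal to those of the sample numbers.

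The plan foresaw limma for such values: limma 3.58.1 (R 4.3.3, trended and robust) on log2(value + 1) was fitted to the groups compared, over genes that reached 1 in at least as many libraries as the smaller group holds, with Benjamini-Hochberg adjustment and a threshold of 0.05. Fold changes on this scale understate those of low genes. Gpnmb alone was tested by two-sided permutation of its mean log2 value. Covariation used 9 strata of group by run. Alternatives were pseudocounts of 0.1 and 5, no filter, scaling to total reads, edgeR 4.0.16 quasi-likelihood and DESeq2 1.42.0 on recovered reads, the run as a covariate, and leaving out each library. The steps were tested on simulated data.

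Named genes were the 10 highest and 10 lowest by r among tested genes with a mean of at least 5, without unnamed gene models; up to 4 members of each of 12 lists that passed in the covariation fit or between strains at 4 months; and the nearest 3 neighbours on each side. Other list members are given for description. The gene, the lists and the tests were chosen with earlier results of these data known. Of the pigment cell list 11 genes were analysed here, and Tyrp1 was not. One gene each of the bipolar and rod lists is counted but not reported here.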

Additional observations from a re-analysis of the deposited data

Results flagged for a closer look

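The strain difference of Gpnmb at 9 months minus that at 4 months was 2.31 on the log2 scale, and the test of this difference itself passed in the pooled libraries. Within the third run, the only one with both ages, it did not pass. There, 0 of 26 fits that left out 1 library each passed (1.36 to 1.74). Gpnmb averaged 31.7 ± 16.45 in DBA/2J and 54.2 ± 24.1 in D2-Gpnmb+ at 9 months, and 9.15 ± 3.38 in DBA/2J and 85.0 ± 31.0 in D2-Gpnmb+ at 4 months. Dixon's test was run on the deposited values, not on the log2 values used in the fits, in the groups of 4 to 10 libraries. On that scale no library stood apart, and the 9-month D2-Gpnmb+ library at 11.9 had a Q of 0.377 (critical value 0.493). On the log2 scale, where Dixon's test was not run, the same library lay at −1.31 from the mean of its stratum. It was the farthest from the median of all such centred values.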

How the results depend on the processing

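The pooled differences for strain at 4 months, age in DBA/2J, the interaction and nicotinamide kept their direction and passed under several alternatives. These were each pseudocount, no filter, scaling to total reads, edgeR, DESeq2 and leaving out any single library. The same differences also kept their direction and passed with the bipolar list as a covariate. That list was chosen after the data were seen, so this is no independent check. With the run as a covariate, age in DBA/2J was 1.44 and nicotinamide −1.07, and neither passed; by construction these values rest on the third run. Treated DBA/2J against D2-Gpnmb+ of 9 months passed under total reads (−2.04), edgeR (−2.20), DESeq2 (−2.20), the run covariate (−2.60) and the bipolar list (−2.35). Within the third run, DESeq2 called the strain difference at 9 months (−1.54), the interaction (1.68) and nicotinamide (−1.13), and age in DBA/2J did not pass with a pseudocount of 0.1 (1.54) or total reads (1.45). The cause of these changes was not tested.

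Leaving out 1 library gave −3.19 to −2.95 for strain at 4 months, −0.99 to −0.65 for strain at 9 months, 1.48 to 1.68 for age in DBA/2J, −0.84 to −0.48 for age in D2-Gpnmb+, 2.07 to 2.44 for the interaction, −1.31 to −1.14 for nicotinamide, −2.22 to −1.88 for treated DBA/2J against D2-Gpnmb+ and 0.25 to 0.46 against DBA/2J of 4 months. Within the third run the ranges were −1.70 to −1.33 (strain at 9 months), 1.27 to 1.65 (age in DBA/2J), −0.22 to 0.0014 (age in D2-Gpnmb+), 1.36 to 1.74 (interaction), −1.28 to −0.90 (nicotinamide) and −2.70 to −2.51 (treated DBA/2J against D2-Gpnmb+). No paired analysis was possible because the labels give the groups no shared replicate numbers.

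The number of covarying genes was 3419 with groups only as strata, 2335 with total reads, 178 in DBA/2J of 9 months on water alone, 577 in DBA/2J alone, 134 in D2-Gpnmb+ alone, 0 in DBA/2J of 4 months alone, 170 without the second run of DBA/2J and 312 without D2-Gpnmb+ of 4 months. Of the 20 named genes, 9 passed in D2-Gpnmb+ alone and 0 in DBA/2J of 4 months alone, where Nfasc (−0.0172), Myo10 (−0.046) and Nrip1 (0.0414) changed sign. Of the neighbours, DESeq2 called 1. Scaling to total reads moved the median log2 fold change of all genes from near 0 to 0.24 for strain at 4 months, −0.13 for strain at 9 months, 0.31 for age in D2-Gpnmb+, −0.36 for the interaction and 0.19 and 0.23 for strain at 9 months and treated DBA/2J against D2-Gpnmb+ within the third run; Gpnmb then differed by −2.81, −0.86, −0.37, 1.95, −1.31 and −2.36. Gpnmb had 33 to 124 reads per library in young DBA/2J, and the bearing of this depth on r there was not tested.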
